A study of Mus musculus with 2 samples.

Results

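The proteasome is the main protease that degrades ubiquitin-tagged proteins in the cytosol and nucleus. Its subunit genes, with the genes of its dedicated activators and assembly factors, were described in the left cerebral cortex of mice. Members were the genes with a protein-coding transcript whose symbol is Psma, Psmb, Psmc, Psmd, Psme, Psmf or Psmg followed by a number. The rule found 48 genes among 55536 gene models, of which 22015 were nuclear protein-coding genes. By role they were 14 constitutive subunits of the 20S core (Psma1 to Psma7 and Psmb1 to Psmb7), 3 immunoproteasome subunits (Psmb8, Psmb9, Psmb10), 2 tissue-specific core subunits (Psma8, Psmb11) and 17 subunits of the 19S regulatory particle. The others were 7 assembly chaperones, 4 activators and the regulator Psmf1. The symbol rule leaves out some proteasome proteins with other names, such as the 19S ubiquitin receptor Adrm1.

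RNA came from 2 males of B6CASTF1/J, an F1 hybrid mouse strain, aged 36 days, with no treatment or engineered allele named in the labels. Each mouse gave 1 total RNA library, made from 300 ng of RNA with ribosomal RNA reduced and ERCC spike-in RNAs added. The libraries are numbered as biological replicates 1 and 2, and the labels give both mice the same donor identifier. All values belong to 1 group, so there was no comparison between conditions, and an exact permutation test over 2 mice cannot give a p below 0.5. Differences are therefore set against the spread between the mice, as mean ± SD with n = 2, and no p-value is given.

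The 20S core is a barrel of stacked rings: outer rings of alpha subunits gate the entrance, and inner rings of beta subunits hold the proteolytic sites. The 19S regulatory particle caps the barrel, binds and removes ubiquitin chains, and unfolds substrates with a ring of ATPases. In cells exposed to interferon-gamma, and constitutively in many immune cells, Psmb8, Psmb9 and Psmb10 replace the catalytic subunits Psmb5, Psmb6 and Psmb7 in newly assembled cores, which favours peptides suited to antigen presentation.

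Expected counts, the estimated reads per gene, summed to 29915463 for replicate 1 and to 27988085 for replicate 2. The tissue label was checked against marker lists. All 5 markers of cortical excitatory neurons reached a TPM (a level adjusted for transcript length and for the library's total) of 1 in each mouse, with Slc17a7 at 599 and 563. Markers of inhibitory neurons (3 of 3), astrocytes (3 of 3), oligodendrocytes (3 of 3), microglia (6 of 6) and endothelial cells (4 of 4) were detected too. None of 4 lymphocyte, 3 germ cell or 2 cerebellar markers reached that level. In such bulk tissue, fewer cells of a type and less RNA per cell cannot be told apart.

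Of the 48 members, 44 reached a TPM of 1 in each mouse and count as detected, where 58.5% of all 22015 protein-coding genes did. The 4 below that level were Psma8, Psmb8, Psmb9 and Psmb11. All 14 constitutive core subunits, all 17 regulatory particle subunits, all 7 assembly chaperones, all 4 activators and Psmf1 were detected, as was 1 of 3 immunoproteasome subunits. The members together held 0.472% of the TPM of protein-coding genes in replicate 1 and 0.460% in replicate 2. The median over all 48 members was a TPM of 48.2 in replicate 1 and 47.5 in replicate 2, against 15.5 and 16.4 over the 12889 detected protein-coding genes.

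**Figure D1:**
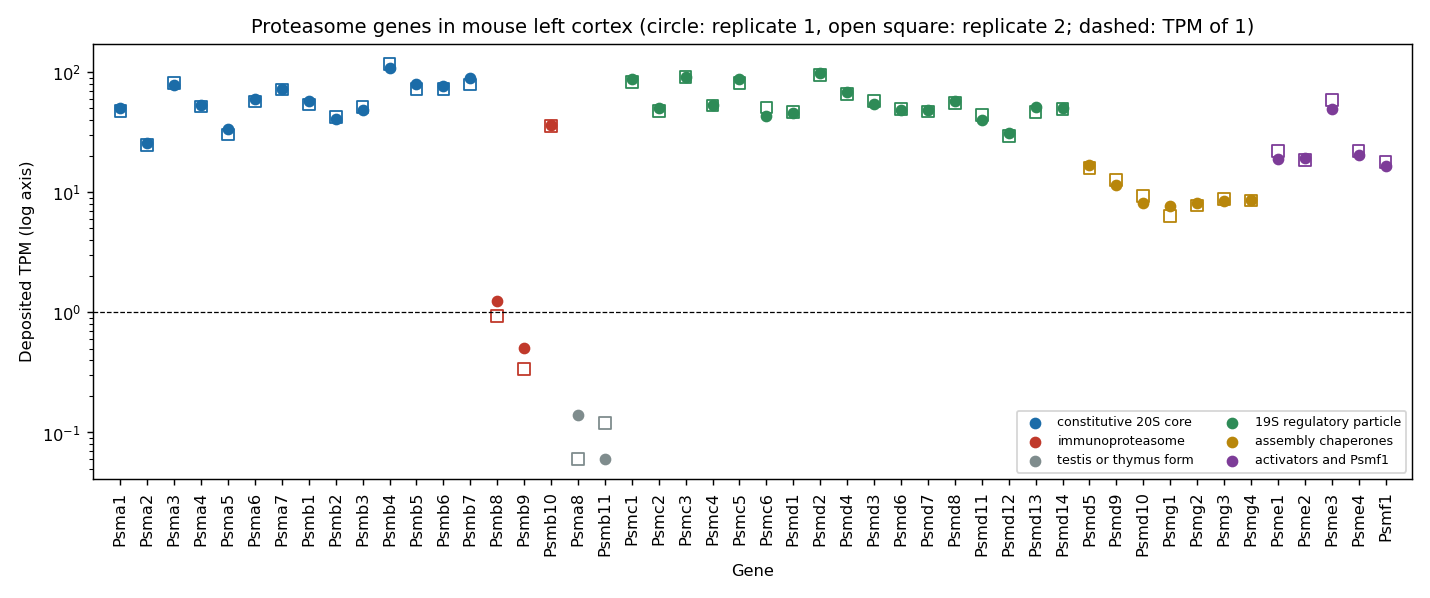
Deposited TPM of each of the 48 genes on a log axis, grouped and coloured by role, with a filled circle for replicate 1 and an open square for replicate 2. Core and regulatory particle subunits lie between 24.9 and 118, assembly chaperones between 6.39 and 16.9, and Psmb8, Psmb9, Psma8 and Psmb11 at or under 1.25.

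The constitutive core and the regulatory particle lay at nearly the same level. The median TPM over the 14 core subunits was 58.6 in replicate 1 and 55.5 in replicate 2 (57.0 ± 2.18). Over the 17 regulatory particle subunits it was 51.5 and 51.0 (51.3 ± 0.361). On the scale of log2(TPM + 1), the core median exceeded that of the regulatory particle by 0.15 ± 0.045 (SD, n = 2), a difference larger than its spread between the mice but far smaller than the range within either group. Genes were quantified both from a transcriptome alignment, the source of all levels unless stated, and directly from the reads. In the read-based table the difference was 0.29. The regulatory particle spanned 3.17-fold in mean TPM, from Psmd12 to Psmd2, and the core spanned 4.46-fold, from Psma2 to Psmb4. Of these 31 subunits, 29 lay within 2-fold of the TPM of 53.1 at their middle, the exceptions being Psma2 below and Psmb4 above. The SD of log2(TPM + 1) among subunits was 0.57 ± 0.0097 in the core and 0.44 ± 0.021 in the regulatory particle, against 1.66 over all detected protein-coding genes. On coding transcripts only, the order of the groups turned, with 0.45 in the core and 0.54 in the regulatory particle. When the 31 subunits were put in order of level, 11 of 30 neighbouring pairs differed by more than the larger of their SDs, so most of the order within the group was not resolved by 2 mice. The length of the gene's transcripts and its TPM had a Spearman coefficient of -0.33 across the 31 genes, which are not independent replicates.

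Among the alpha subunits, which form the gated outer rings, the median TPM was 53.6 in replicate 1 and 52.0 in replicate 2. Psma3, the alpha7 subunit, was the highest, with a TPM of 78.3 and 81.2 over all transcripts. On coding transcripts only it had 44.7 and 47.8, and its mean was below those of Psma7, Psma6 and Psma4. Psma7, the alpha4 subunit, followed at 73.2 and 72.1. The other alpha subunits formed a middle group and a lower pair. Psma6 (alpha1) stood at 59.9 and 57.2, Psma4 (alpha3) at 53.6 and 52.0, and Psma1 (alpha6) at 50.04 and 47.8. Psma5 (alpha5) had a TPM of 33.5 and 30.3, and Psma2 (alpha2) had the lowest, 26.0 and 24.9. Psma2 was thus below every other core subunit in both mice, although each core carries a pair of copies of every alpha protein. Its main transcript in these tables, Psma2-201, is 2911 nucleotides long and held 68.0% and 66.7% of its TPM. Psma2 also overlaps AW209491, a gene on the same strand with an expected count of 407 and 381, so the split of reads between them is uncertain.

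The germ-cell alternative to Psma7, Psma8, had expected counts of 3 and 1 and a TPM of 0.14 and 0.06. None of the 3 germ cell markers was detected, with Tnp1 at 0 in both mice, Sycp3 at 0.25 and 0.26 and Ddx4 at 0.77 and 0.69.

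The beta subunits, which form the inner rings, had a median TPM of 77.4 and 72.3. Psmb4 (beta7), a structural subunit without protease activity, was the highest of all members at 109 and 118 in the alignment-based table. In the read-based table it came below Psmc3, at 159 and 159 against 180 and 179. In the alignment-based table the catalytic subunits came next and close together. Psmb7 (beta2, the trypsin-like site) had a TPM of 90.2 and 79.3, Psmb5 (beta5, the chymotrypsin-like site) 80.6 and 72.3, and Psmb6 (beta1, the caspase-like site) 77.4 and 72.6. The means of these 3 genes differed by at most 1.13-fold, and each was lower in replicate 2. The remaining structural subunits were lower. Psmb1 (beta6) had a TPM of 57.2 and 53.8, Psmb3 (beta3) 48.6 and 51.3, and Psmb2 (beta4) 40.9 and 42.2. Psmb11, the thymus form of beta5, was near 0, with 5 and 9 expected counts and a TPM of 0.06 and 0.12, beside its neighbour Psmb5, from which it is separated by 3411 nucleotides on chromosome 14.

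In the regulatory particle, the 6 ATPases of the base, which pull substrates into the core, had a median TPM of 70.5 and 66.9. They fell into a higher and a lower set of 3. Psmc3 (Rpt5) had a TPM of 92.0 and 90.9, Psmc5 (Rpt6) 88.3 and 81.0, and Psmc1 (Rpt2) 87.8 and 83.1. Psmc4 (Rpt3) had 53.3 and 52.9, Psmc2 (Rpt1) 50.2 and 47.8, and Psmc6 (Rpt4) 43.3 and 51.0. The lowest value of the higher set, 81.0, was above the highest of the lower set, 53.3, so the sets did not overlap in either mouse. In the read-based table the sets did not overlap either, but the gap was narrow, with Psmc6 at a TPM of 111.8 and 110.3 beside 125 and 116 for Psmc5. That table's TPM is on another scale and is compared only within itself. Each regulatory particle carries 1 copy of each ATPase.

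The other base subunits are the scaffold proteins Psmd1 and Psmd2 and the ubiquitin receptor Psmd4. Psmd2 (Rpn1) had the highest level in the regulatory particle in the alignment-based table, with a TPM of 98.9 and 94.4. In the read-based table it had 137 and 127, below Psmc3 and Psmc1. Psmd1 (Rpn2) stood at 45.6 and 47.0. Psmd4 (Rpn10) lay between them at 68.8 and 65.8, but in the read-based table it was below Psmd1, at 74.9 and 78.9 against 81.4 and 81.8. The 8 lid subunits were closer together, with a 1.87-fold range in mean TPM and medians of 49.2 and 48.3. Psmd14 (Rpn11), the deubiquitinase that removes ubiquitin chains as substrates enter, had a TPM of 50.1 and 49.5. Its partner Psmd7 (Rpn8) had nearly the same level, 48.1 and 47.1. The top of the lid was shared by Psmd8 (Rpn12) at 58.1 and 55.8 and Psmd3 (Rpn3) at 54.9 and 58.0. Over all transcripts in the alignment-based table Psmd12 (Rpn5) was lowest at 31.3 and 29.6. Psmd11 (Rpn6), a subunit that holds the lid to the core, was next at 40.1 and 44.1. Psmd6 (Rpn7) and Psmd13 (Rpn9) had TPM values from 46.7 to 51.5. On coding transcripts only, Psmd13 was the lowest of the lid at 24.9 and 24.2, and Psmd6 was below Psmd11. In the read-based table Psmd12 was still the lowest, and Psmd7 was next at 68.0 and 68.8.

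The promoters of core and regulatory particle genes are shown because these subunits lie at similar levels although on many chromosomes. All 48 members together lie on 16. A further reason is that counts of the sequence motifs searched differed between the groups. Of 6 motifs, 2 were picked for display after all had been counted. Windows of 300 bases, from 250 before to 50 after the annotated start, came from RefSeq on GRCm38.p6 and were found for 40 of the 48 members and 16522 protein-coding genes in all. They are reference sequences, from which the alleles of these F1 hybrid mice may differ. Each motif was sought on both strands, and a gene with several windows was counted if any held the motif. No motif contains another in its fixed letters, though matches may overlap. Below are 120-base stretches that end before the annotated start, written 5′ to 3′ in the direction of the gene. The first 4 are regulatory particle genes with the Ets-type letters CCGGAAG, or CTTCCGG when on the other strand, in capitals. The last 3 are core genes with the antioxidant-response-type letters TGANNNNGC in capitals.
Psmc2 (chr5:21785155-21785274, strand plus): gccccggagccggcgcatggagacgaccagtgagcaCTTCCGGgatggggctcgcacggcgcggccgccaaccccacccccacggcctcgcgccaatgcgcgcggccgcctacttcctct
Psmc6 (chr14:45329668-45329787, strand plus): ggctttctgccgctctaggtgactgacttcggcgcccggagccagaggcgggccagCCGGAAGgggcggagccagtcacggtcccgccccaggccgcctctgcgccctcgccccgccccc
Psmd2 (chr16:20651532-20651651, strand plus): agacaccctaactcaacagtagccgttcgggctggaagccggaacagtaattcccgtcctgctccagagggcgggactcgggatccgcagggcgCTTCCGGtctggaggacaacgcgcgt
Psmd11 (chr11:80428495-80428614, strand plus): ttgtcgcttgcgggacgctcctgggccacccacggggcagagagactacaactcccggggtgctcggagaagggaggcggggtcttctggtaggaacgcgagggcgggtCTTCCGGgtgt
Psma4 (chr9:54950670-54950789, strand plus): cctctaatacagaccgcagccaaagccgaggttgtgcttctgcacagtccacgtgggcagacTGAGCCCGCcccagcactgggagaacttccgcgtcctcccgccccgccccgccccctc
Psmb5 (chr14:54618023-54618142, strand minus): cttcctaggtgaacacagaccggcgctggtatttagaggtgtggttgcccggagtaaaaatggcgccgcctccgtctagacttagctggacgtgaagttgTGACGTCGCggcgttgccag
Psmb6 (chr11:70525237-70525356, strand plus): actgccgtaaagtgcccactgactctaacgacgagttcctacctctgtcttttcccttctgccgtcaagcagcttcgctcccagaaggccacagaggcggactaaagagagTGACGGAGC

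The Ets-type letters were present in 14 of the 40 promoters (35.0%) and in 13.4% of all 16522 genes. By role they were in 9 of 14 regulatory particle promoters and 1 of 11 core promoters. The genes with them were Psmc1, Psmc2, Psmc6, Psmd2, Psmd4, Psmd6, Psmd11, Psmd12 and Psmd13 in the regulatory particle, Psma6 in the core, and Psme3, Psme4, Psmg1 and Psmg3. In the printed stretches the letters lay 84 bases before the RefSeq start in Psmc2, 100 in Psmc6, 26 in Psmd2 and 11 in Psmd11. The antioxidant-response-type letters TGANNNNGC, a loose form of the element bound by Nfe2l1 and Nfe2l2, were in 23 of 40 promoters (57.5%) and 45.6% of all genes. They were in 8 of 11 core and 6 of 14 regulatory particle promoters. The interferon-stimulated type, GAAA followed after any 2 bases by another GAAA, was in 5 of 40 promoters against 4.02% of all genes, and in none of the 3 immunoproteasome promoters. The interferon-gamma-activated type, TTCNNNGAA, was in 3 of 40, 1 of them Psmb8, against 9.02%. CCAAT was in 14 of 40 against 42.1%, with 6 of 11 core and 4 of 14 regulatory particle promoters. The Sp1-type GGGCGG was in 23 of 40 against 51.0%, with 5 of 11 and 10 of 14. These are matches of letters only. No binding was measured, and no test was made of the counts.

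Beside the promoters, 8 of the 48 members (16.7%) had the start of another protein-coding gene on the opposite strand within 1000 nucleotides upstream, where 6.75% of all protein-coding genes did. Pairs whose annotated genes overlap at their starts, such as Psmb9 and Tap1 (212 nucleotides), were not counted on either side. Psmc2 and Dnajc2 start 32 nucleotides apart, Psma2 and Mrpl32 75, Psmc5 and Ftsj3 75, and Psma7 and Ss18l1 76. The partners were lower than the subunits. Ftsj3 had a TPM of 15.2 and 13.2 beside the mean of 84.6 for Psmc5, and Dnajc2 had 14.6 and 14.0 beside the mean of 49.0 for Psmc2.

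The immunoproteasome subunits split into a nearly absent pair and Psmb10. Psmb8 (beta5i) had expected counts of 24 and 14 and a TPM of 1.25 and 0.93. Psmb9 (beta1i) had expected counts of 9 and 4 and a TPM of 0.51 and 0.34. Both lie on chromosome 17, 9957 nucleotides apart. Psmb10 (beta2i), on chromosome 8 from 105935735 to 105938444 on the minus strand in mm10, had expected counts of 478 and 423 and a TPM of 36.1 and 35.6, which placed it among the lower core subunits.

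Against their constitutive counterparts, Psmb5 was 64.4-fold and 77.7-fold higher than Psmb8 in TPM, and Psmb6 was 152-fold and 213-fold higher than Psmb9. Psmb7 was 2.50-fold and 2.23-fold higher than Psmb10. On the log2(TPM + 1) scale these differences were 5.21 ± 0.047, 5.74 ± 0.056 and 1.22 ± 0.11 (SD, n = 2), each many times its spread between the mice. Psmb8 and Psmb9 lie near or below the added 1, which narrows the spread of their pairs. With a pseudocount of 0.1 the values were 6.02 ± 0.17 for Psmb5 over Psmb8 and 7.18 ± 0.27 for Psmb6 over Psmb9. The immuno form thus made up 1.53% and 1.27% of the beta5 pair, 0.654% and 0.466% of the beta1 pair, and 28.6% and 30.97% of the beta2 pair.

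Most of the TPM of Psmb10 was not on its coding transcript. Psmb10-201, the coding transcript of 1311 nucleotides, held 29.8% and 24.1% of the gene's TPM, which is a TPM of 10.8 and 8.57. The retained-intron transcript Psmb10-205, of 554 nucleotides, held 28.1% and 42.4%, and the processed transcript Psmb10-203, of 426 nucleotides, 29.2% and 23.9%. These short transcripts weigh more in TPM than in reads: of the gene's expected counts, 53.7% and 45.1% were on the coding transcript. On coding transcripts only, a comparison chosen after the data were seen, Psmb7 was 8.31-fold and 9.13-fold higher than Psmb10, and the immuno form made up 10.7% and 9.87% of the beta2 pair. The table quantified directly from the reads also gave the coding transcript of Psmb10 a minority, 33.5% of its TPM, although there it was the leading transcript. The other pairs stayed far apart on coding transcripts, at 183-fold and 105-fold for Psmb5 over Psmb8 and 145-fold and 236-fold for Psmb6 over Psmb9.

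**Figure D2:**
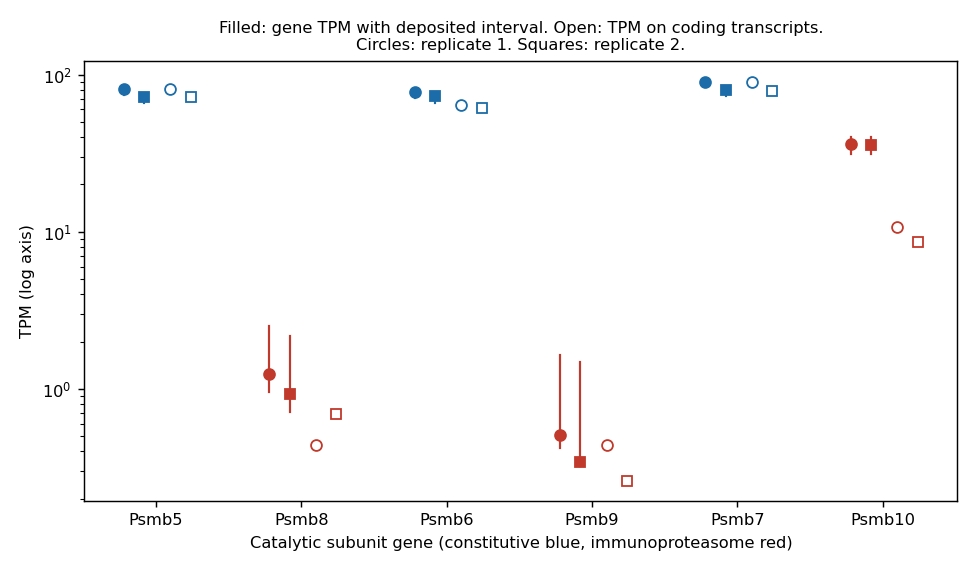
TPM on a log axis of the catalytic subunits and their immunoproteasome counterparts, with filled symbols for the gene and its deposited interval, open symbols for coding transcripts only, circles for replicate 1 and squares for replicate 2. Psmb8 and Psmb9 lie at or under 1.25, and Psmb10 goes from 36.1 and 35.6 over all transcripts to 10.8 and 8.57 on coding transcripts.

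The antigen presentation genes that share regulation with these subunits were mostly low. Of 8 listed genes 6 were detected, with a median TPM of 3.93 in replicate 1 and 4.38 in replicate 2. Tap1, which transports peptides into the endoplasmic reticulum and shares its start region with Psmb9, had a TPM of 0.54 and 0.84, and the transactivator Nlrc5 0.43 and 0.42. B2m, the light chain of class I molecules, was the highest at 50.5 and 48.8, followed by the peptide-loading factor Tapbp at 17.0 and 16.9. Microglia, brain cells that can carry immunoproteasomes, were represented by all 6 of their markers, with a summed TPM of 145 and 146, and the 4 endothelial markers summed to 89.6 and 87.3. None of the 4 lymphocyte markers was detected, and Cd3g and Ms4a1 were at 0 in both mice. The part of any cell type in the Psmb10 level was not tested.

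The activators, which open the core without ATP or ubiquitin, were below most subunits with 1 exception. Psme1 and Psme2, the interferon-inducible PA28 alpha and beta that join in 1 ring, had TPM values of 19.1 and 22.1 and of 19.4 and 18.7. In the alignment-based table their difference on the log2(TPM + 1) scale, 0.10 ± 0.18, was smaller than its spread between the mice. In the read-based table Psme1 was higher in both mice, at 42.05 and 40.3 against 22.8 and 24.1 for Psme2. Psme1 and Psme2 lie on chromosome 14 with a gap of 5912 nucleotides. Psme3, the nuclear PA28 gamma, was higher at 49.8 and 58.9. Psme4 (PA200), another mainly nuclear activator, had 20.4 and 22.1, and Psme3 exceeded it by 1.31 ± 0.090. Psmf1 (PI31), a regulator of core activity and assembly, had a TPM of 16.5 and 17.8.

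The assembly chaperones, which guide subunits into place and leave the finished particle, were the lowest group that was detected throughout. Their median TPM was 8.55 in replicate 1 and 8.78 in replicate 2, and the core median exceeded it by 2.58 ± 0.079 on the log2(TPM + 1) scale. The core chaperones Psmg1 to Psmg4 act as pairs on the alpha ring and lay within 1.22-fold of each other in mean TPM. Psmg1 had a TPM of 7.77 and 6.39, its partner Psmg2 8.08 and 7.78, Psmg3 8.55 and 8.78, and its partner Psmg4 8.71 and 8.57. The base chaperones were more spread. Psmd5 had a TPM of 16.9 and 15.9, Psmd9 11.6 and 12.6, and Psmd10 (gankyrin) 8.18 and 9.32. In the alignment-based table even the highest of the 7, Psmd5, was below the lowest core subunit, Psma2, in both mice. The read-based table had the reverse order, with Psmd5 at 34.9 and 38.1 and Psma2 at 31.5 and 32.4. By contrast with the chaperones, Pomp, the core maturation factor that is degraded inside each new core, had an alignment-based TPM of 75.0 and 70.3.

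Among partner genes outside the symbol rule, 10 of 10 measured proteasome partners were detected, with a median TPM of 43.9 and 44.3. The ubiquitin receptor Adrm1 had a TPM of 43.5 and 42.1, the small lid subunit Sem1 21.6 and 18.4, and the proteasome-bound deubiquitinase Usp14 70.4 and 68.4. All 6 ubiquitin and ubiquitin-activating genes listed were detected, led by the polyubiquitin gene Ubb at 744 and 750. All 7 shuttle and segregase genes were detected, with a median of 62.5 and 60.3. Nfe2l1, a factor known to drive proteasome genes when proteasomes fail, had a TPM of 129 and 116, and its relative Nfe2l2 had 5.74 and 5.44.

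Between the mice the members differed by small amounts, mostly in 1 direction. Log2 ratios of replicate 2 over replicate 1 were taken from expected counts scaled by TMM, a method that centres the bulk of genes. Of the 43 members with a mean count of at least 100, 0 passed a 1.5-fold difference, where 1.37% of 11715 protein-coding genes did. That share is too small for 0 of 43 to set the members apart. Their median absolute log2 ratio was 0.13, against 0.10 over those protein-coding genes, so they did not differ less than the typical gene. Of the same 43, 35 (81.4%) were lower in replicate 2, where 57.0% of protein-coding genes were. All 14 core subunits were lower in replicate 2 on this scale and with DESeq2 size factors, 13 in the read-based table, 12 with library totals and 0 on the spike-in scale. The core's median log2 ratio was -0.14, and the 95% exact binomial interval of the ratio excluded 0 for 10 of them. These intervals cover counting error only. In the regulatory particle 15 of 17 were lower, with a median of -0.073, the 2 others being Psmd3 and Psmd11, against 11 with library totals and 0 on the spike-in scale. Assembly chaperones, 4 of 7 lower with Psmg4 (under 100 counts) included, and the activators with Psmf1, 2 of 5 lower, showed no common direction. The 10 proteasome partners were all lower on the TMM scale too, with a median of -0.064, while the spike-in scale moves every such ratio up by 0.40.

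The median ratio of the 43 members was -0.098, against -0.025 over all protein-coding genes, whose 5th and 95th percentiles were -0.28 and 0.31. Psmg1 was the only member outside that range, with 143 counts in replicate 1, 106 in replicate 2 and a log2 ratio of -0.40 (interval -0.77 to -0.025). The next largest differences were -0.24 for Psmb7, -0.22 for Psmb5, -0.21 for Psma5 and 0.20 for Psmd9. With library totals as the scale, 26 of the 43 members were lower in replicate 2. Scaled to the spike-in RNAs, 0 of 43 were lower: the member median became 0.30 and that of all protein-coding genes 0.37, so the direction between the mice depends on the scale. A change of scale moves all genes by 1 constant and leaves the gap between the medians as it is. All 5 excitatory neuron markers (median log2 ratio -0.099), all 3 astrocyte markers (-0.12) and all 3 oligodendrocyte markers were also lower in replicate 2 on the TMM scale. Of the last, Mbp had a TPM of 576 and 497 and Mog 27.6 and 21.3. Among the excitatory markers Camk2a was nearly level, at -0.0046. The other brain cell lists were mixed on the TMM scale. Lower in replicate 2 were 1 of 3 inhibitory neuron markers (median 0.031), 4 of 6 microglia markers (-0.037) and 2 of 4 endothelial markers (0.001). The part of these cell types in the member ratios was not tested.

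**Figure D3:**
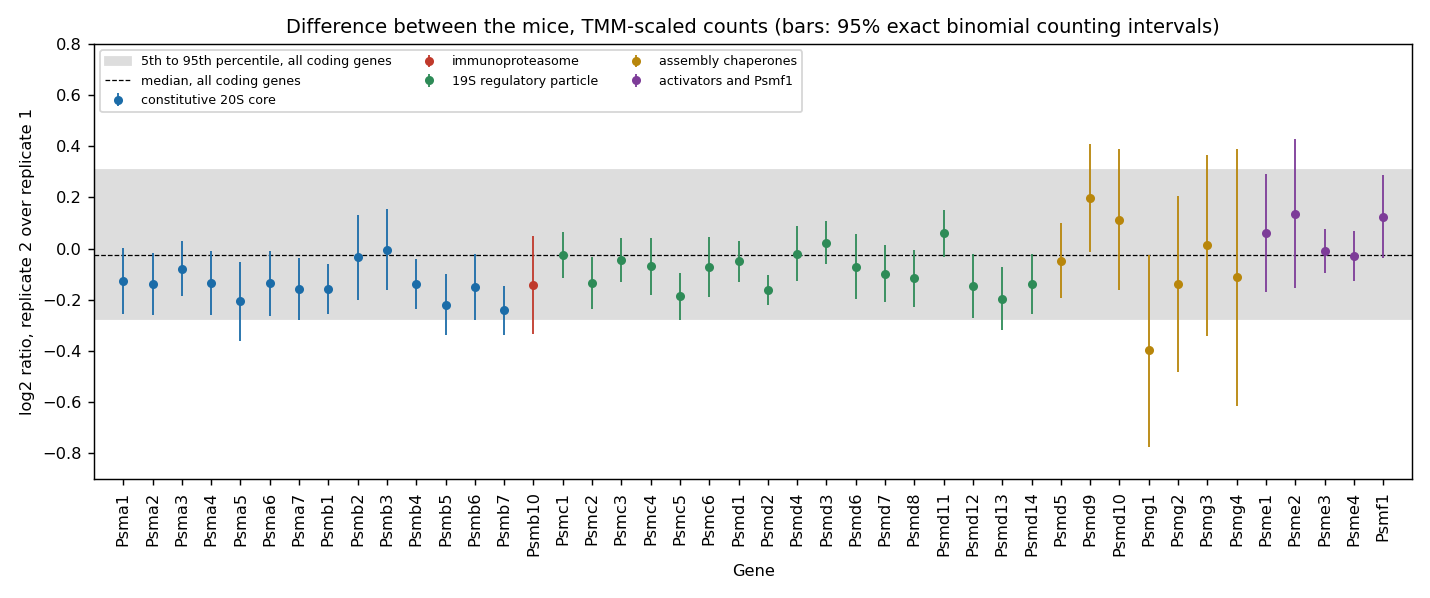
Log2 ratio of replicate 2 over replicate 1 from TMM-scaled expected counts for the 44 detected members, with 95% exact binomial counting intervals as bars, the median of all protein-coding genes dashed and their 5th to 95th percentiles in grey. All 14 core subunits lie below 0 on this scale (12 with library totals, 0 on the spike-in scale), and Psmg1 at -0.40 is the only member below the grey band.

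Most subunit genes were carried by coding transcripts. Over the 44 detected members the median share of TPM on coding transcripts was 92.4% in replicate 1 and 90.5% in replicate 2, against 86.4% over 11667 detected protein-coding genes with at least 2 transcripts. The share was above 90% for 25 of 44 members and for 42.3% of those genes. A single transcript held over 90% of the alignment-based TPM in 15 members, among them Psmb7 (98.9%), Psmc2 (98.2%) and Psmd12 (98.9%). The same transcripts of these named genes held 99.1%, 94.0% and 62.0% of the read-based TPM, in that order. In the read-based table the median coding share was 82.8%, close to the 83.8% of all such genes.

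The 5 detected members with the lowest coding share included Psmb4. After Psmb10, Psmc6 had coding shares of 54.3% and 41.7%, Psmd13 48.2% and 51.8%, Psmb4 59.0% and 44.6%, and Psma3 57.1% and 58.9%. In Psmb4 the rest was retained-intron transcripts, led by the 666-nucleotide Psmb4-202 at 29.8% and 37.1%. On coding transcripts Psmb4 had a TPM of 64.2 and 52.5 and was 9th among the members, where over all transcripts it was 1st. Psmd2, at 94.6 and 88.6, was then the highest. In Psmd13 the leading transcript was Psmd13-211, annotated for nonsense-mediated decay, with 34.1% and 33.2%. In the alignment-based table Psmd13 and Psmb10 were the only detected members led by a non-coding transcript. In the read-based table Psmb10 was led by its coding transcript, and Psmd13, Psma3 (Psma3-201, 38.7%) and Psmc6 (Psmc6-203, 23.2%) by non-coding ones.

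**Figure D4:**
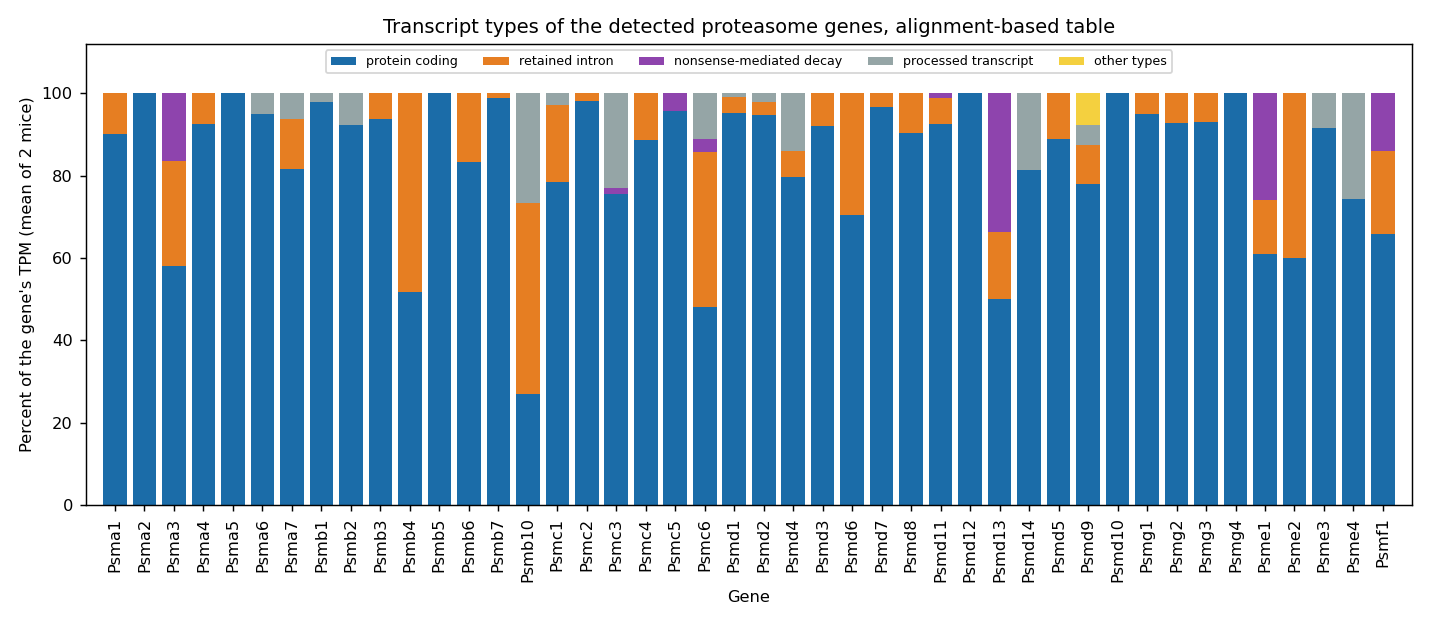
Stacked bars of the percent of each detected gene's TPM on transcripts of each annotated type, as the mean of 2 mice, for 44 members grouped by role. Psmb10 has the smallest coding share, 26.9%, and Psmb4, Psmc6, Psmd13 and Psma3 lie between 48.0% and 58.0%.

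The deposited tables from the transcriptome alignment and directly from the reads gave similar gene levels. After both were rescaled to the same protein-coding genes, 0 of 44 detected members differed by more than 1.5-fold in the mean of both mice, where 4.71% of 12877 genes did. The Spearman coefficient across the 44 members was 0.93. The largest differences, read-based over alignment-based on the log2 scale, were 0.53 for Psmc6, -0.51 for Psmd4, 0.44 for Psmd5, -0.39 for Psme2 and -0.38 for Psmd10. Psmc6 in replicate 1 alone, at 0.67, was past 1.5-fold. The tables differed more on transcripts: the leading transcript was the same for 37 of 44 members. Psma3-204, the leading transcript of Psma3 at 34.4%, was at or near 0 in the read-based table, where coding transcripts held 8.31% of the gene. Psmb1 was led by Psmb1-201 (74.5%) in one table and by Psmb1-204 (92.1%) in the other.

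**Figure D5:**
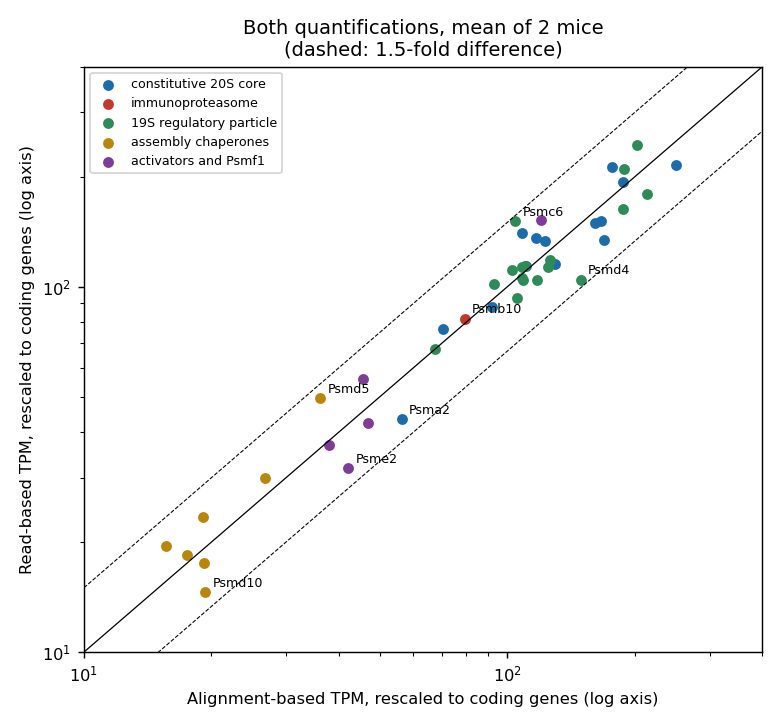
Mean TPM of the 44 detected members in the read-based table (vertical) against the alignment-based table (horizontal), both rescaled to protein-coding genes and on log axes, with lines of equality and of a 1.5-fold difference. All 44 points lie between the dashed lines, with Psmc6 and Psmd4 nearest to them.

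Near-identical copies limit some of these levels. Stretches of 31 bases of the leading transcript were looked up in the transcripts of all other genes. For 24 members no stretch recurred, and for 12 more than 10% did. Psma3 shared 79.0% of its stretches, mainly with the pseudogene Gm13835, which was given expected counts of 89.8 and 61.9. Psmb5 shared 74.0%, mainly with Gm3375 (98.8 and 75.2 counts), and Psme2 70.5%, with Psme2b (5.40 and 8.86 counts). Psmb3 shared 66.8%, Psma5 64.0% and Psmd2 45.3%. The pseudogene Gm15542, which overlaps Psmd13 on the same strand, had 502 and 320 counts beside 1153 and 983 for Psmd13. Psmd13 also overlaps Sirt3 on the opposite strand, as Psmb7 overlaps Nek6 and Psmc3 overlaps Slc39a13, and the sources used here do not say whether the counting used strand. The levels of these genes are uncertain to the extent that reads were assigned to the copies.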

How the data were processed

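Gene and transcript tables of both mice were used as deposited, on mm10 with GENCODE M21 per the deposited listing. The alignment-based tables hold expected counts, TPM and, for transcripts, the percent of a gene's TPM, per the file headers. Deposited estimated counts and TPM also come from a second transcript table made directly from the reads, called read-based. Which aligner and quantification tools were used is not given in the sources used here. TPM spans all annotated RNAs, so abundant small RNAs lower every value. The intervals plotted are the authors' deposited TPM bounds, and for Psma8 and Psmd11 they do not contain the deposited TPM.

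Levels are deposited TPM, and group differences are of medians of log2(TPM + 1). Expected counts were rounded for edgeR 4.0.16 (TMM, R 4.3.3), with a prior count of 0.5, and ratios were taken where the mean count was at least 100. Other steps used Python 3.11.15. Ratios were tested on simulated data, where 99% of genes changed 2-fold and 0.32% of unchanged genes passed 1.5-fold. Between the mice 1.37% of genes passed it, so the simulation, with its assumed noise, does not give the error rate in these data. All symbols the rule found were named. A few genes of the other lists enter the list counts but are not reported here by name. Members and lists were chosen with earlier results of these data known. Of 11 listed partners 1 was not matched by symbol. The labels call the mice separate animals, so the spread covers animals and libraries together. Alternatives were other detection levels (0.1 and 5), a pseudocount of 0.1, TPM rescaled to protein-coding genes, coding transcripts only, the read-based table, DESeq2 1.42.0 size factors, library and spike-in totals, count minimums of 20 and 500, members with at least 10 counts, and leaving out each replicate.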

Additional observations from a re-analysis of the deposited data

How the results depend on the processing

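Of 73 alternatives over 13 results, 47 moved the value by less than the spread between the mice or, for counts, by less than 1.5 times, 25 moved it further and 1 reversed it. Leaving out 1 of 2 mice always moves a mean by less than their SD, and the minimum of 10 counts removed no gene from the groups compared. Except for results that are counts, these alternatives could only fall among the 47 and say nothing about stability. The reversal was the median log2 ratio between the mice. As a ratio between the mice has no spread between them, this result was judged against a counting error of 0.017. It was 0.30 on the spike-in scale, where 1 member (Psmd9, 0.59) passed 1.5-fold. On library totals the median was -0.038. With a pseudocount of 0.1 the log2 differences were 6.02 for Psmb5 over Psmb8, which is also the median of the 3 catalytic pairs, 7.18 for Psmb6 over Psmb9 and 2.70 for the core over the assembly chaperones, and the core spread was 0.58. With rescaled TPM the pairs gave 5.64 and 6.43. The read-based table gave 5.11 and 5.96 for these pairs, 0.29 for the core over the regulatory particle, 2.71 over the chaperones, a core spread of 0.61 and a coding share of 82.8%. On coding transcripts only, chosen after the data were seen, the median of the pairs was 5.46, with 5.63 for Psmb5, 5.56 for Psmb6 and 3.00 for Psmb7, the core exceeded the chaperones by 2.49, and the spreads were 0.45 in the core and 0.54 in the regulatory particle. Their order was thus the reverse of that over all transcripts. Leaving out a replicate gave 0 to 1 members past 1.5-fold between the tables. Detected members numbered 44 to 46. The cause of these shifts was not tested. Depth limits Psma8, Psmb8, Psmb9 and Psmb11, with at most 24 counts, and 2 mice limit every spread.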
